A study of Rattus norvegicus with 6 samples.

Results

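The genes described here encode subunits of NADPH oxidases, enzymes that pass electrons from NADPH to oxygen and release superoxide or hydrogen peroxide. They were chosen by name: Cybb, Cyba, Ncf1, Ncf4 and Rac2 of the phagocyte oxidase, and Nox4, which encodes the catalytic subunit of a second oxidase. All 6 genes were found among the 22250 genes of the rat expression table, and all 6 passed the filter on low counts that kept 13784 genes for testing. Gene expression was measured by RNA-Seq of polyadenylated RNA from left ventricular myocardium of transplanted rat hearts. Donors were Sprague-Dawley rats of the WT genotype, aged 10 weeks in the young group (animals 3, 13 and 15) and 1 year in the aged group (animals 3, 4 and 7). Every heart had been kept in cold storage, placed into a young recipient by heterotopic heart transplantation, and sampled on postoperative day 1. The comparison asks how the transcripts of these oxidases differed between aged and young donor hearts. No heart without transplantation was among these samples, so donor age is compared only after storage and transplantation. The animal numbers count within each group, and young animal 3 and aged animal 3 are different rats.

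In phagocytes, Cybb, the flavocytochrome that carries the electrons, sits in the membrane together with Cyba, which stabilizes it. On activation, cytosolic subunits that include the organizer Ncf1 and the adaptor Ncf4 move to the membrane with the small GTPase Rac2, and superoxide is released in a burst. Nox4 also needs Cyba, but it is constitutively active without the cytosolic subunits. It is known from vascular cells, fibroblasts and cardiomyocytes, while Cybb, Ncf1, Ncf4 and Rac2 are best known from neutrophils and macrophages.

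Library totals lay between 21457509 and 22277905 reads for young donors, and between 22508040 and 24560869 reads for aged donors. Values written as CPM are library-scaled read counts, with TMM factors, which correct each library for genes that take many reads, from 0.733 to 1.24. A level of 3 counts corresponds to 0.122 to 0.14 CPM. Young animal 15 stood apart from the other young donor hearts. The summed CPM of 6 leukocyte markers was 140 and 124 in young animals 3 and 13, 1196 in young animal 15, and 1583 to 3131 in aged donor hearts. The summed CPM of 10 cardiomyocyte markers was 84423 and 93614 in young animals 3 and 13, 13080 in young animal 15, and 181 to 8193 in aged donor hearts, with the lowest value in aged animal 3. Genes of the mitochondrial genome took 21.7% of the counts in each of young animals 3 and 13, 11.9% in young animal 15 and 6.56% to 10.3% in aged donor hearts. In such bulk samples, fewer cells of a type and less RNA per cell cannot be told apart. The members, their ratios to Nox4, their main comparisons with markers and the counts over gene lists are therefore also given without young animal 15. This heart was picked after its values were seen. It had the highest CPM of the young group for Cybb, Cyba, Ncf4 and Rac2, so leaving it out necessarily raises their differences. The p-values and calls of fits without it are therefore descriptive.

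The promoters of the members are shown first, because the phagocyte subunits did not move as a block and the ETS factor Spi1 (PU.1) is a known regulator of Cybb in myeloid cells. RefSeq promoter sequences were matched for 4 of the 6 members. Each line gives the 100 bases before the start of the gene in build GRCr8, read 5′ to 3′ on the strand of the gene, with the letters GAGGAA or TTCCTC in capitals. The regions are chrX:16065066-16065165 (minus strand) for Cybb, chr19:67404215-67404314 (minus strand) for Cyba, chr12:28121785-28121884 (plus strand) for Ncf1 and chr1:150313789-150313888 (plus strand) for Nox4.
Cybb: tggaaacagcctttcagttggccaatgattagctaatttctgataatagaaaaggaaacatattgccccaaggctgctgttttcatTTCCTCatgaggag
Cyba: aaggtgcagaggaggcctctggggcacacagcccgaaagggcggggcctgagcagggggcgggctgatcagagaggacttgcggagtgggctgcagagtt
Ncf1: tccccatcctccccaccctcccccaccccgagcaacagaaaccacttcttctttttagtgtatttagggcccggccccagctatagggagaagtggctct
Nox4: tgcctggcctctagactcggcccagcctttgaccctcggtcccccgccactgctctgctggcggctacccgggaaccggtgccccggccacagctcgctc
The PU.1 core GAGGAA and its reverse complement TTCCTC were searched on both strands from 250 bases before to 50 bases after each start. The shorter ETS core GGAA, which occurs elsewhere in the printed bases of Cybb and Nox4, was not searched. Among the 4 promoters, GAGGAA was found once, in that of Cybb, on the strand opposite to the gene. On the strand of the gene it reads TTCCTC, with the first base of TTCCTC at position -14. On either strand, GAGGAA occurs in 27.6% of the 33469 promoters of this length. The AP-1 core TGACTCA, searched in the same way, occurs in 4.63% of promoters and in 0 of these 4. The GC content of the whole window was 35.7% for Cybb, 61.0% for Cyba, 59.7% for Ncf1 and 73.0% for Nox4, beside a median of 51.7% over all promoters, whose 5th and 95th percentiles were 35.3% and 72.7%. The promoters of the 2 catalytic subunits thus lay near opposite ends of that range. A match of letters is a description and not a site.

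Among the members, Ncf4, Rac2 and Cyba were higher in aged donor hearts, by 2.92, 2.11 and 1.86 on the log2 scale, and Nox4 was lower, by 3.74-fold in mean CPM. Cybb was higher in every aged donor heart than in any young one, but it did not pass the test, and Ncf1 did not differ detectably. A gene is called here when its fold change is above 1.5 or below 0.67 and its unadjusted p-value in edgeR's quasi-likelihood test is under 0.05. SE denotes the standard error of a log2 fold change. By this rule 3 of the 6 members were called higher and 1 lower. Over all genes tested, 13.2% were called higher and 19.0% lower. For 4 members, CPM in every aged donor heart exceeded that in every young one, beside 21.0% of all genes tested, and the reverse held for 1 member, beside 20.7%. After Benjamini-Hochberg adjustment over all genes, 0 members and 0 genes passed 0.05 in edgeR, where 4 members and 4731 genes had an unadjusted p-value under 0.05. With DESeq2, 4 members and 3592 genes passed the adjusted limit. With limma-voom and sample quality weights, which changes both the test and the weight of each heart, 5 members and 8416 genes did. Without young animal 15, 5 members and 6815 genes passed it in edgeR. In that fit 4 members were called higher and 1 lower, beside 26.9% and 24.2% of the 14109 genes tested. Leaving out any 1 of the other hearts left 0 members and 0 genes under the adjusted limit in edgeR. Calls of higher genes made up 40.9% of all calls under TMM, 68.6% with library totals as the only scaling and 58.6% when scaled by totals without mitochondrial genes. Scaling by totals alone moved the median log2 fold change of all genes from 0.0165 to 0.455, and no member changed direction or call under it.

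**Figure D1:**
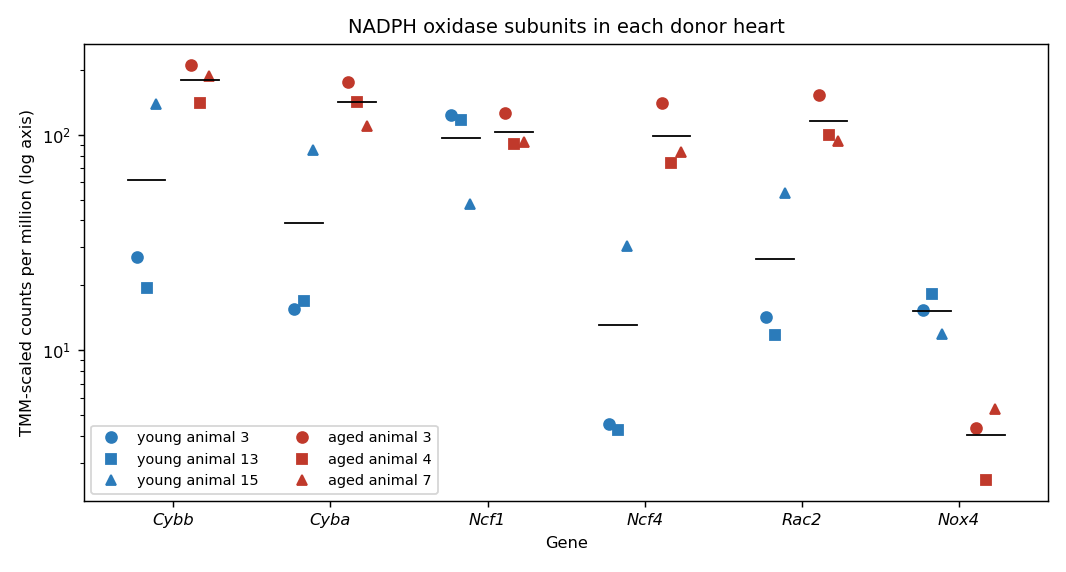
Level of each member in each donor heart, in TMM-scaled CPM on a log axis, with young donor hearts in blue, aged donor hearts in red, 1 symbol per animal and a line at the group mean. Young animal 15 (blue triangle) lay between 30.3 and 139 CPM for Cybb, Cyba, Ncf4 and Rac2, above the other young donor hearts, and at 47.7 CPM for Ncf1, below all other hearts. The aged donor hearts lay below every young donor heart for Nox4.

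Cybb (ENSRNOG00000003622, chrX:14578264-14612547 on the plus strand of Rnor_6.0) is the catalytic subunit of the phagocyte oxidase. Its read counts were 447, 307 and 3365 in young animals 3, 13 and 15, and 6421, 3683 and 4913 in aged animals 3, 4 and 7. Scaled to CPM, these were 27.0, 19.5 and 139 in young donors, against 211, 140 and 188 in aged donors. The groups met at 139 and 140 CPM, so the separation rested on the difference between young animal 15 and aged animal 4. Mean CPM was 61.8 ± 66.9 (SD, n = 3) in young and 180 ± 36.4 (SD, n = 3) in aged donor hearts. The log2 fold change was 1.54 (SE 0.758, adjusted p = 0.192, edgeR), and Cybb was not called. Without young animal 15 it was 2.99 (adjusted p = 0.00148, edgeR), and Cybb was called higher. Leaving out each heart in turn gave 1.11 to 2.99, and a call was made only in the fit without young animal 15.

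Cyba (ENSRNOG00000013014, chr19:55249616-55257876 on the minus strand) is the membrane partner that Cybb and Nox4 share. Young animals 3, 13 and 15 had 256, 266 and 2056 reads, and aged animals 3, 4 and 7 had 5343, 3727 and 2873. In CPM the young donor hearts stood at 15.5, 16.9 and 84.9 and the aged at 175, 141 and 110. The groups did not overlap, and the lowest aged donor heart was 1.3 times the highest young one. The means were 39.1 ± 39.7 (SD, n = 3) and 142 ± 32.7 (SD, n = 3) CPM, with a log2 fold change of 1.86 (SE 0.709, adjusted p = 0.127, edgeR). This call was lost whenever a heart other than young animal 15 was left out, which covers young animals 3 and 13 and aged animals 3, 4 and 7, at log2 fold changes of 1.48 to 2.02 with unadjusted p-values above the limit. Without young animal 15 the log2 fold change was 3.17 (adjusted p = 0.0012, edgeR).

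Ncf1 (ENSRNOG00000001480, chr12:25497104-25506300 on the plus strand) encodes the organizer that is phosphorylated when the oxidase is switched on. Its reads numbered 2043, 1839 and 1155 for young animals 3, 13 and 15, and 3833, 2379 and 2420 for aged animals 3, 4 and 7. The scaled levels were 124, 117 and 47.7 CPM in young donors, against 126, 90.1 and 92.7 CPM in aged donors. Young animal 15 was the lowest of the 6 hearts for Ncf1, at 0.397 times the mean of the other young donor hearts, whereas it stood 4.13 to 6.88 times above that mean for Cybb, Cyba, Ncf4 and Rac2. The groups overlapped, with means of 96.0 ± 42.0 (SD, n = 3) and 103 ± 19.9 (SD, n = 3) CPM. The log2 fold change was 0.10 (SE 0.383, adjusted p = 0.865, edgeR). It was -0.19 without young animal 15 (adjusted p = 0.47, edgeR) and -0.06 without aged animal 3 (adjusted p = 0.933, edgeR).

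Ncf4 (ENSRNOG00000006940, chr7:119482272-119499425 on the plus strand) encodes the adaptor that binds the phagosome membrane. The reads numbered 75, 67 and 733 in young animals 3, 13 and 15, against 4267, 1949 and 2169 in aged animals 3, 4 and 7. Its levels were 4.53, 4.26 and 30.3 CPM in young donors, against 140, 73.9 and 83.1 CPM in aged donors. Of the 5 phagocyte subunits, Ncf4 had the widest gap between the groups, the lowest aged donor heart being 2.44 times the highest young one. Mean CPM was 13 ± 14.9 (SD, n = 3) in young and 99.0 ± 35.9 (SD, n = 3) in aged donor hearts, a ratio of 7.6. The log2 fold change was 2.92 (SE 0.854, adjusted p = 0.0934, edgeR), and it ran from 2.50 to 4.53 when each heart was left out in turn, with the call kept in each fit and the highest value without young animal 15.

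Rac2 (ENSRNOG00000007350, chr7:119783849-119797098 on the minus strand) is the GTPase of blood cells that completes the active phagocyte oxidase, and it lies 284 kb from Ncf4. It had 235, 185 and 1300 reads in young animals 3, 13 and 15, and 4620, 2627 and 2451 in aged animals 3, 4 and 7. These correspond to 14.2, 11.8 and 53.7 CPM in young donors, against 152, 99.5 and 93.9 CPM in aged donors. Again the groups did not overlap, and young animal 15 lay between the other young and the aged donor hearts. The means were 26.5 ± 23.5 (SD, n = 3) and 115 ± 31.8 (SD, n = 3) CPM, and the log2 fold change was 2.11 (SE 0.631, adjusted p = 0.0946, edgeR). Across the fits that left out 1 heart it ran from 1.76 to 3.18, the latter without young animal 15, and Rac2 was called in each.

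Nox4 (ENSRNOG00000013925, chr1:150797084-150976194 on the plus strand) moved the opposite way. Its counts were low in every heart, at 255, 287 and 288 reads in young animals 3, 13 and 15 and 133, 66 and 139 reads in aged animals 3, 4 and 7. The levels were 15.4, 18.2 and 11.9 CPM in young donors, against 4.37, 2.50 and 5.32 CPM in aged donors. All 3 young donor hearts lay above all 3 aged ones, and the lowest young was 2.23 times the highest aged. For Nox4, young animal 15 stood with the young group, at 0.707 times the mean of the other young donor hearts. Mean CPM was 15.2 ± 3.18 (SD, n = 3) in young and 4.06 ± 1.44 (SD, n = 3) in aged donor hearts. The log2 fold change was -1.90 (SE 0.352, adjusted p = 0.0916, edgeR). It ran from -2.13 to -1.64 when each heart was left out in turn, and Nox4 was called lower in every such fit. Its value was -2.01 without young animal 15 (adjusted p = 0.00662, edgeR).

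Levels of different genes were compared per length, as FPKM (read counts divided by gene length and by library total). In aged donor hearts the mean FPKM was highest for Cyba at 219 ± 59.3 (SD, n = 3), followed by Rac2 at 100 ± 32.8, Ncf4 at 78.8 ± 32.6, Cybb at 49.7 ± 12.2, Ncf1 at 42.3 ± 10.3 and Nox4 at 1.28 ± 0.468. This order was the same in each of the 3 aged donor hearts. Rac2 and Ncf4, Ncf4 and Cybb, and Cybb and Ncf1 were neighbours whose mean ± SD ranges overlapped, whereas Cyba above and Nox4 below did not overlap with the rest. In young donor hearts the means were 50.6 ± 60.2 (SD, n = 3) for Cyba, 26.9 ± 7.91 for Ncf1, 19.1 ± 20.6 for Rac2, 14.5 ± 18.0 for Cybb, 8.81 ± 11.4 for Ncf4 and 3.39 ± 0.203 for Nox4. The mean ± SD ranges of all neighbours in this order overlapped. Ncf1 had the highest FPKM of the 6 members in young animals 3 and 13 and ranked 5th in the other 4 hearts. Ncf4 ranked 6th, below Nox4, in young animals 3 and 13, and 3rd or 4th in the other 4 hearts.

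To compare the phagocyte subunits with Nox4, the ratio of their reads per length was taken within each heart, which is free of library scaling. For Cybb, the ratio to Nox4 was 1.54, 0.938 and 10.2 in young animals 3, 13 and 15, and 42.2, 48.6 and 30.9 in aged animals 3, 4 and 7. The ratios for Cyba were 4.90, 4.53 and 34.8 in young donors, against 195, 274 and 101 in aged donors. In young animals 3 and 13 the transcripts of both catalytic subunits were thus at similar levels, and in the aged donor hearts Cybb exceeded Nox4 in each. The difference in mean log2 ratio between aged and young donor hearts was 5.44 for Ncf4, 4.38 for Rac2, 4.26 for Cyba, 4.02 for Cybb and 2.15 for Ncf1. In each of these 5 comparisons the lowest aged value exceeded the highest young value, young animal 15 included (two-sided exact permutation test, p = 0.1 in each, the smallest that 3 hearts against 3 allow). The 5 ratios share Nox4 as denominator, so these comparisons are not independent of each other. The ratios for Ncf1 were 10.4, 8.33 and 5.22 in young donors, against 37.4, 46.6 and 22.6 in aged donors, although its own CPM did not separate the groups. With log2 fold changes of 0.10 for Ncf1 and -1.90 for Nox4, the separation of this ratio came mainly from its denominator. Without young animal 15, the 5 differences were 6.54, 5.23, 5.22, 5.05 and 1.87 in the same order (exact permutation test, p = 0.2 in each, the smallest that 2 hearts against 3 allow). Cybb made up 60.6%, 48.4% and 91.1% of the summed FPKM of both catalytic subunits in young animals 3, 13 and 15, and 97.7%, 98.0% and 96.9% in aged animals 3, 4 and 7. The depth limits this share mainly through Nox4, which had 66 reads in aged animal 4.

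The phagocyte subunits also differed from each other in proportion. Per length, Cyba was 3.19 to 4.83 times Cybb in young and 3.26 to 5.64 times in aged donor hearts, so this pair kept a similar ratio in all 6 hearts while Cybb itself varied from 19.5 to 211 CPM. Rac2 was 1.21 to 1.89 times Cybb in young and 1.57 to 2.26 times in aged donor hearts, and these ranges overlapped. Ncf4 was 0.482, 0.628 and 0.623 times Cybb for young animals 3, 13 and 15, against 1.90, 1.51 and 1.26 times for aged animals 3, 4 and 7. Here young animal 15 lay with the other young donor hearts, so Ncf4 was the less abundant of the pair in the young and the more abundant in the aged donor hearts. Ncf1 was 6.78 and 8.88 times Cybb in young animals 3 and 13, but only 0.51 times in young animal 15 and 0.887, 0.959 and 0.732 times in the aged donor hearts. Its highest and lowest ratios differed 17.4-fold. Rac2 made up 8.87%, 7.61% and 18.9% of the summed FPKM of Rac1, Rac2 and Rac3 in young animals 3, 13 and 15, and 39.4%, 31.4% and 29.9% in aged animals 3, 4 and 7. The groups did not overlap in this share, which is given without a test.

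**Figure D2:**
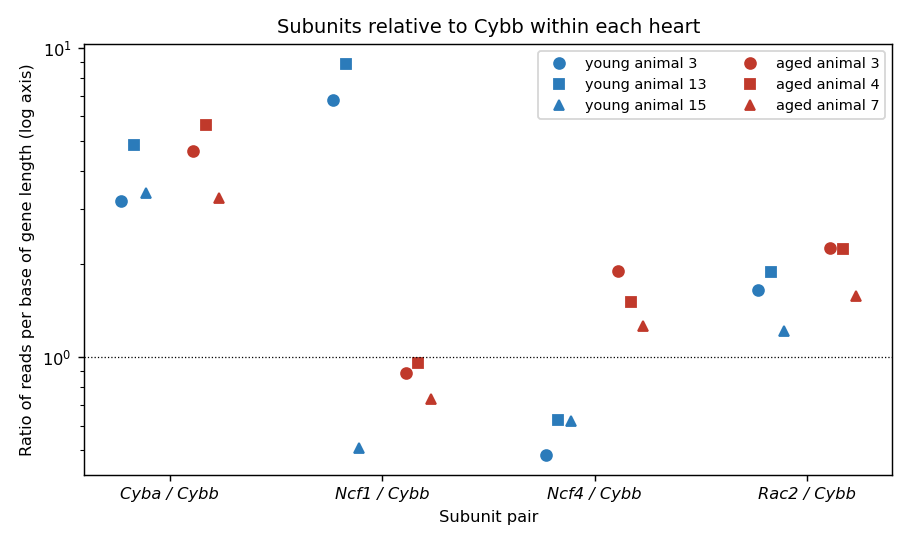
Ratio of each phagocyte subunit to Cybb in reads per base of gene length, on a log axis, with 1 symbol per donor heart (blue young, red aged) and a dotted line at equal levels. Cyba and Rac2 kept overlapping ranges, Ncf4 passed from 0.482 to 0.628 in young to 1.26 to 1.90 in aged donor hearts, and Ncf1 was above 6 times Cybb in young animals 3 and 13 only.

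Across the 6 hearts, the members' log2 CPM profiles, each centred on its own mean, were compared by their root mean square difference. Cyba and Rac2 were closest to each other, at 0.20, followed by Cybb and Rac2 at 0.31 and Cybb and Cyba at 0.32. Ncf4 was 0.59 from Rac2 and 0.74 from Cybb. Ncf1 was 1.59 to 2.14 from the other phagocyte subunits and 1.14 from Nox4. Nox4 was 2.27 to 2.93 from Cybb, Cyba, Ncf4 and Rac2. By the same measure, over 10922 genes with a mean of at least 5 CPM, the 5 genes nearest to Cybb were Snai1 at 0.10, Siglec10 at 0.16, Sdc4 at 0.18, Cd82 at 0.20 and Tifab at 0.21. Among those nearest to Nox4 were Clic2 at 0.25, Smtnl2 at 0.30, Acot3 at 0.32 and AABR07007068.1 at 0.35. These distances describe 6 hearts and carry no test.

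Leukocyte markers were high in the same hearts as Cybb, Cyba, Ncf4 and Rac2. In mean log2 CPM, the 6 leukocyte markers stood at 4.33, 4.18 and 7.37 in young animals 3, 13 and 15 and at 8.78, 7.93 and 7.88 in aged animals 3, 4 and 7. In all 6 of these markers every aged donor heart lay above every young one, beside 21.0% of all genes tested. Of the 6, 3 were called higher, beside 13.2% of all genes tested, a share that also stands beside the marker counts that follow. Of the neutrophil markers, 8 of the 8 tested were called higher, with a summed CPM of 16.3 to 136 in young and 347 to 1312 in aged donor hearts, while Mpo, a defining granule enzyme, had at most 3 reads in any heart. Of 10 macrophage markers, 6 were called higher, with a summed CPM of 299 to 984 in young and 1044 to 2406 in aged donor hearts. Of the T cell markers, 1 of 4 tested was called higher, at a summed CPM of 2.68 to 5.38 in young and 7.20 to 11.2 in aged donor hearts. With young animal 15 left out, 6 of the 6 leukocyte, 8 of the 8 neutrophil, 10 of the 10 macrophage and 1 of the 4 T cell markers were called higher, beside 26.9% of all genes in that fit. The part of these cells in the differences of the members was not tested beyond the comparisons with markers that follow.

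Set against the mean of the leukocyte markers in the same heart, the phagocyte subunits differed in direction. Ncf4 was higher in every aged donor heart, at -2.13, -2.06 and -2.44 relative to the markers in young animals 3, 13 and 15 and -1.65, -1.72 and -1.50 in aged animals 3, 4 and 7, on the log2 scale. The difference was 0.59, and the groups did not overlap (two-sided exact permutation test, p = 0.1, the smallest possible). Cybb was lower relative to the markers, at 0.43, 0.11 and -0.25 in young against -1.06, -0.80 and -0.32 in aged donor hearts, a difference of -0.82 (exact permutation test, p = 0.1), with the groups meeting at -0.25 and -0.32. The differences of Cyba and Rac2 were -0.59 (exact permutation test, p = 0.2) and -0.47 (exact permutation test, p = 0.4), and both had overlapping groups. Ncf1 stood at 2.61 and 2.69 in young animals 3 and 13, -1.79 in young animal 15 and -1.80 to -1.34 in aged donor hearts, a difference of -2.70 (exact permutation test, p = 0.3). Without young animal 15, the differences were 0.47 for Ncf4, -0.82 for Rac2, -0.83 for Cyba, -0.99 for Cybb and -4.18 for Ncf1 (exact permutation test, p = 0.2 in each, the smallest possible). Rac2 differed by -0.26 without young animal 3 and -0.32 without young animal 13. The reference matters to the direction. Against neutrophil markers the differences of all 5 subunits were negative, from -4.03 for Ncf1 to -0.74 for Ncf4, and the groups overlapped only for Ncf4 (exact permutation test, p = 0.2). In young animals 3 and 13 the mean of the neutrophil markers was only -0.50 and -0.41 log2 CPM, with 0 reads for Camp and Elane. The size of these differences therefore rests partly on counts near the floor. Against macrophage markers Ncf4 was higher by 1.77 and Rac2 by 0.71 (exact permutation test, p = 0.1 each), while Cyba at 0.59 and Cybb at 0.36 had overlapping groups and Ncf1 differed by -1.51 (exact permutation test, p = 0.3, 0.5 and 0.4).

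For Nox4, markers of the cells it is known from were used. In mean log2 CPM, fibroblast, endothelial and smooth muscle markers had overlapping groups, with 2 of 6, 1 of 6 and 1 of 6 called lower and 0 called higher. Over all genes tested, 19.0% were called lower and 13.2% higher. Without young animal 15, 1 of 6, 2 of 6 and 2 of 6 were called lower, beside 24.2% of all genes in that fit. In the same fit 1 fibroblast marker was called higher, beside 26.9% of all genes, and 0 endothelial or smooth muscle markers. The summed CPM of these markers was 6250 to 7805 in young and 2019 to 4144 in aged donor hearts for fibroblasts, 1096 to 1578 and 852 to 1320 for endothelium, and 667 to 959 and 536 to 780 for smooth muscle, so the fibroblast sums did not overlap. Relative to fibroblast markers Nox4 differed by -1.23 on the log2 scale, with overlapping groups (exact permutation test, p = 0.2), and by -1.48 without young animal 15. Relative to endothelial markers it was lower in every aged donor heart, by -1.50 (exact permutation test, p = 0.1), and likewise relative to smooth muscle markers, by -1.59 (exact permutation test, p = 0.1). The 10 cardiomyocyte markers had a median log2 fold change of -3.15, with 4 called lower, beside 19.0% of all genes tested. Without young animal 15, 5 were called lower, beside 24.2% of all genes in that fit. Relative to the mean of the cardiomyocyte markers Nox4 differed by 2.34, with overlapping groups (exact permutation test, p = 0.3). The values were -8.10, -7.97 and -6.14 in young animals 3, 13 and 15 and -1.39, -7.53 and -6.27 in aged animals 3, 4 and 7. The difference thus rested mainly on aged animal 3. No marker of these lists was at 0 in every heart.

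**Figure D3:**
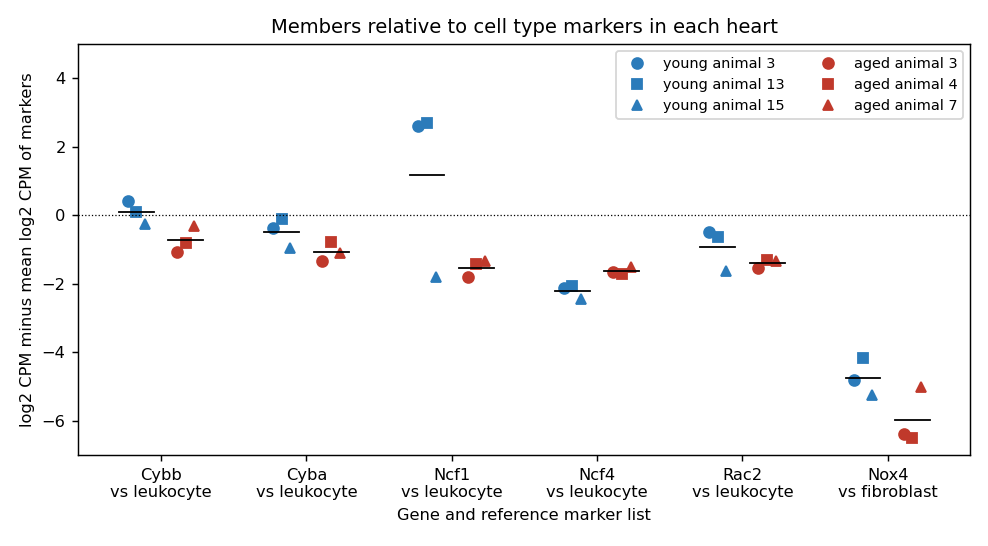
Log2 CPM of each member minus the mean log2 CPM of cell type markers in the same donor heart, leukocyte markers for the phagocyte subunits and fibroblast markers for Nox4, with young in blue, aged in red and a line at the group mean. Ncf4 was higher in all aged donor hearts (-1.72 to -1.50 against -2.44 to -2.06 in young), and Ncf1 lay at 2.61 and 2.69 in young animals 3 and 13 and below -1 in the other 4 hearts.

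Other genes of the oxidase family were taken from a list of partners and relatives. Of 14 in the table, 8 passed the filter on low counts, and 2 were called higher and 2 lower, with a median log2 fold change of 0.57, beside 0.0165 over all genes tested. Of all genes tested, 13.2% were called higher and 19.0% lower. Cybc1, a chaperone for the assembly of Cybb with Cyba, stood at 21.3, 23.2 and 52.0 CPM in young animals 3, 13 and 15 and 82.6, 73.5 and 65.0 CPM in aged animals 3, 4 and 7. The groups did not overlap, and its log2 fold change was 1.19 (SE 0.374, adjusted p = 0.0983, edgeR). Sh3pxd2b, an adaptor related to Ncf1, was also called higher, at 1.36 (adjusted p = 0.141, edgeR). Poldip2, which binds Cyba and is known to raise Nox4 activity, was called lower at -0.92 (adjusted p = 0.14, edgeR), as was the GTPase Rac3 at -1.35 (adjusted p = 0.143, edgeR). Both had overlapping groups, and 0 genes of this list were called lower under scaling by totals or when any heart other than young animal 15 was left out. Calls of higher genes fell to 0 without young animal 3 or 13 and to 1 without any 1 of the aged donor hearts. Over all genes, fits without a heart other than young animal 15 gave 817 to 1404 higher and 1615 to 2160 lower calls. These were out of 14024 to 14089 tested, beside 1815 and 2621 in the main fit. Without young animal 15, 3 of the 8 were called higher and 2 lower, beside 26.9% and 24.2% of all genes in that fit. Rac1, the widely expressed relative of Rac2, had a mean of 398 ± 123 (SD, n = 3) CPM in young and 525 ± 20.8 (SD, n = 3) CPM in aged donor hearts and was not called (adjusted p = 0.34, edgeR). The dual oxidase Duox1 at 0.74, its maturation factor Duoxa1 at 1.38 and the adaptor Sh3pxd2a at -0.17 were not called either. Nox1, Nox3, Duox2 and Duoxa2 were too low to be tested, Nox1 with 0 to 12 reads a heart, and Noxo1 and Noxa1 had 0 reads in every heart. Of the catalytic subunits listed, those above the filter were therefore Cybb, Nox4 and Duox1.

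Genes that act on the oxidase upstream showed a similar mixture. Of 13 tested, 3 were called higher and 1 lower, beside 13.2% and 19.0% of all genes tested, with a median log2 fold change of 1.04. Arhgdib, the inhibitor that holds Rac proteins in the cytosol of blood cells, had 47.9, 34.4 and 74.7 CPM in young animals 3, 13 and 15 and 208, 137 and 167 CPM in aged animals 3, 4 and 7. Its groups were well apart, and the log2 fold change was 1.71 (SE 0.337, adjusted p = 0.0916, edgeR). Pik3cd, a phosphoinositide kinase of leukocytes, was called higher at 0.98 (adjusted p = 0.114, edgeR), and so was Pla2g4a, the cytosolic phospholipase that releases arachidonic acid, at 1.17 (adjusted p = 0.135, edgeR). Prkca, a kinase that phosphorylates Ncf1, was called lower at -0.77 (adjusted p = 0.0916, edgeR), and its groups did not overlap, but 0 genes of this list were called lower under scaling by totals. The exchange factor Vav1 at 2.21 (adjusted p = 0.164, edgeR) and the proton channel Hvcn1 at 1.74 (adjusted p = 0.233, edgeR) were not called. Prkcb, Prkcd, Pik3cg, Prex1, Pak1, Rap1a and Arhgdia were also not called, with log2 fold changes from -0.35 to 1.49. With young animal 15 excluded, 10 of the 13 were called higher and 1 lower, beside 26.9% and 24.2% of all genes in that fit. Only 1 was called higher without young animal 3 or 13 or without aged animal 3 or 4. Over all genes, those fits gave 817 to 1404 higher calls out of 14024 to 14089 tested, beside 1815 of 13784 in the main fit.

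The products of the oxidases are removed by dismutases, catalase and peroxiredoxins. Of 5 such genes tested, 2 were called lower and 0 higher, beside 19.0% and 13.2% of all genes tested, with a median log2 fold change of -0.43. Sod3, the extracellular superoxide dismutase, stood at 99.6, 74.4 and 57.8 CPM in young animals 3, 13 and 15 and 18.7, 12.8 and 9.15 CPM in aged animals 3, 4 and 7. All aged donor hearts were below all young ones, with a log2 fold change of -2.51 (SE 0.344, adjusted p = 0.0916, edgeR). Cat, which encodes catalase, fell from a mean of 300 ± 95.9 (SD, n = 3) to 146 ± 45.5 (SD, n = 3) CPM, a log2 fold change of -1.04 (adjusted p = 0.114, edgeR). The groups nearly met, at 189 CPM in young animal 15 and 186 CPM in aged animal 4. The cytosolic Sod1 at -0.42, the mitochondrial Sod2 at -0.33 and the peroxiredoxin Prdx6 at -0.43 were not called. The list kept 1 lower call under scaling by totals and without young animal 3, young animal 13, aged animal 3 or aged animal 7. Over all genes, lower calls were 1441 under scaling by totals and 1615 to 2067 in these fits without 1 heart. The main fit gave 2621. Without young animal 15, 2 of the 5 were called lower and 0 higher, beside 24.2% and 26.9% of all genes in that fit.

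Among 7 transcription factors of myeloid cells, 2 were called higher and 0 lower, beside 13.2% and 19.0% of all genes tested, with a median log2 fold change of 1.93. Spi1, which encodes PU.1, stood at 13, 11.1 and 69.5 CPM in young animals 3, 13 and 15 and at 150, 113 and 100 CPM in aged animals 3, 4 and 7. The aged donor hearts lay above the young ones, with a log2 fold change of 1.95 (SE 0.745, adjusted p = 0.127, edgeR). Cebpb was called higher at 1.26 (adjusted p = 0.104, edgeR), with overlapping groups. Cebpa at 2.23, Cebpe at 2.31, Irf1 at 0.62, Irf8 at 1.39 and Runx1 at 1.93 were not called. When young animal 15 was left out, 7 of the 7 were called higher, beside 26.9% of all genes in that fit. By contrast, 1 was called without aged animal 4 and 0 without any 1 of the other hearts. Over all genes, higher calls were 1404 without aged animal 4 and 817 to 1238 in those other fits, of 14024 to 14089 tested. The main fit gave 1815 higher calls.

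**Figure D4:**
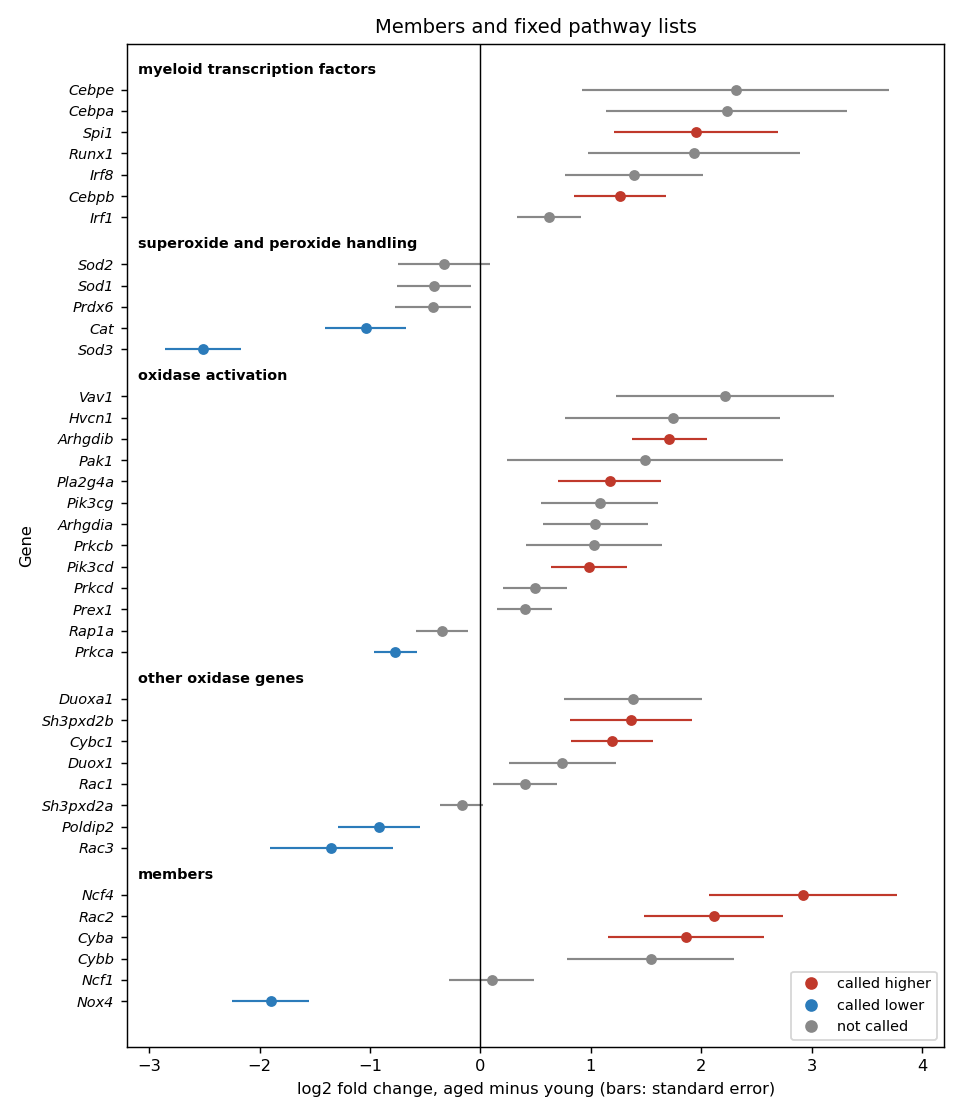
Log2 fold change, aged minus young donor hearts, with its standard error for the 6 members and the tested genes of the 4 pathway lists, from edgeR's quasi-likelihood test. Red marks genes called higher, blue genes called lower and grey genes not called. Ncf4 lay highest among the members at 2.92 and Nox4 lowest at -1.90, while Sod3 was the lowest gene plotted at -2.51.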

How the data were processed

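The authors deposited 1 table with raw read counts per gene for each of the 6 hearts and the FPKM values derived from them. The submitters' processing notes name HISAT2 2.0.5, StringTie 1.3.3b, featureCounts 1.5.0-p3 and the genome build Rnor_6.0. Use of strand in counting is not given in the sources used here. The deposited FPKM equalled count over length and library total within a relative tolerance of 0.001 for all but 1 of 133500 values. Columns of the table's annotation were used as given, and no gene in the table overlaps a member.

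The test used edgeR 4.0.16 under R 4.3.3 (filterByExpr, TMM, quasi-likelihood test without covariates over 13784 genes, Benjamini-Hochberg adjustment), with limma 3.58.1 (voom with sample quality weights) and DESeq2 1.42.0 as alternatives. Standard errors divide the log2 fold change by the square root of F. The limits on fold change and p follow the paper. Log2 CPM used a prior count of 2, and ratios to Nox4 had 0.5 counts added. Single values were compared by two-sided exact permutation tests, in 5 ratios to Nox4 and 6 main comparisons with markers. The marker comparisons were repeated with other marker lists, and both sets with 1 heart left out. None of these p-values was adjusted. Replicates were taken as separate animals from their numbers, and the labels give no batch. Promoters came from RefSeq (GRCr8). Its coordinates were not joined with those of Rnor_6.0. The edgeR fit was tested on simulated counts, and the permutation test on made-up values.

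The members and lists were chosen with earlier results of these data known. Named are all 6 members, the pathway list genes, marker lists by counts and, for Cybb and Nox4, the 5 genes with the nearest profiles. For Nox4, 1 of the 5 is left out of the text. Alternatives were other scalings, filters, tests, limits, added counts and marker lists, and leaving out each heart.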

Additional observations from a re-analysis of the deposited data

How the results depend on the processing

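No paired analysis was possible because the groups share only the animal number 3, which names different rats. With the adjusted p limit of 0.05, the log2 fold changes of Ncf4 (2.92), Rac2 (2.11), Cyba (1.86) and Nox4 (-1.90) were no longer called, and members called higher and lower became 0 and 0. Cybb was called with DESeq2 (1.53), limma-voom with sample quality weights (2.83) and without young animal 15 (2.99). Ncf1 was 0.65 with library totals alone and 0.46 with totals without mitochondrial genes, not called in either, and turned to -0.30 with weighted limma-voom, -0.19 without young animal 15 and -0.06 without aged animal 3. Relative to other markers, the direction turned for Cybb (0.36) and Cyba (0.59) and Rac2 (0.71) against macrophages, Ncf4 (-0.74) against neutrophils and Nox4 (2.34) against cardiomyocytes. The value of Nox4 against cardiomyocytes rested mainly on aged animal 3. The cause was not tested in these cases.

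Over fits without 1 heart, log2 fold changes ran from 1.11 to 2.99 for Cybb, 1.48 to 3.17 for Cyba, -0.19 to 0.32 for Ncf1, 2.50 to 4.53 for Ncf4, 1.76 to 3.18 for Rac2 and -2.13 to -1.64 for Nox4, with 2 to 4 members called higher and 1 lower. Relative to markers, the differences ran from -1.03 to -0.66 for Cybb, -0.83 to -0.40 for Cyba, -4.18 to -1.94 for Ncf1, 0.47 to 0.66 for Ncf4, -0.82 to -0.26 for Rac2 and -1.71 to -0.94 for Nox4. Oxidase relatives called higher were 0 to 3 and lower 0 to 2, activation genes called higher 1 to 10 and lower 1, superoxide and peroxide genes called lower 1 to 2, and transcription factors called higher 0 to 7. The most calls of higher activation genes and transcription factors came without young animal 15. With the adjusted limit all 4 lists had 0 calls. DESeq2 called 5 activation genes and 5 transcription factors higher, and weighted limma-voom called 10 and 7. Calls of lower genes became 1 (fold limit of 2) or 1 (no filter) for oxidase relatives and 0 (fold limit of 2) for activation genes. Scaling by totals, with or without mitochondrial genes, left 0 lower oxidase relatives, 0 lower activation genes and 1 lower superoxide or peroxide gene. Over all genes, 1815 higher and 2621 lower calls became 3689 and 3815 with weighted limma-voom, 3147 and 1441 with totals alone, 0 and 0 with the adjusted limit, and 817 to 3802 and 1615 to 3412 without 1 heart. Counts were low for Nox4, at 66 to 288 reads a heart, and for Ncf4 in young animals 3 and 13, at 75 and 67 reads.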

Other observations

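The genes next to the members on the chromosome were chosen by position alone, and their values carry no test. Mvd, an enzyme of sterol synthesis that lies 1028 bases from Cyba on the same strand, stood at 8.77, 8.64 and 25.1 CPM in young animals 3, 13 and 15 and at 35.2, 31.8 and 22.8 CPM in aged animals 3, 4 and 7. Sstr3, a somatostatin receptor gene 15766 bases from Rac2 on the same strand, stood at 1.27, 1.02 and 1.28 CPM in young and 4, 3.26 and 4.98 CPM in aged donor hearts, higher in every aged than in any young donor heart. Gtf2i, a transcription factor gene 8947 bases from Ncf1 on the same strand, stood at 260, 267 and 150 CPM in young and 93.8, 124 and 121 CPM in aged donor hearts. Dynlt3, a dynein light chain gene 20794 bases from Cybb on the opposite strand, had 68.9, 61.8 and 34.6 CPM in young and 35.6, 25.0 and 33.6 CPM in aged donor hearts. Pvalb next to Ncf4 had 0 to 5 reads and Tyr next to Nox4 had 0 reads in every heart.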
